A study of Arabidopsis thaliana with 3 samples.

Results

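The genes described here are encoded by the mitochondrial chromosome of Arabidopsis thaliana. A gene was taken where a probe set, the group of short probes that reports one transcript on the array, was annotated to exactly 1 gene of that chromosome. There were 16 such genes, measured by 23 probe sets, among 13356 genes with a probe set of 1 gene, and the probe set with the highest mean over the 3 arrays stood for each gene. Shoots were collected at 10 days from plants kept under constant light at 22 °C. The wild type, Col, had 2 arrays. The flp-1/myb88 double mutant, in which 2 related MYB factors that end stomatal divisions are mutated, had 1 array and therefore no replicate. The labels name the flp-1 allele, give no allele number for myb88, and are silent on whether separate plants gave the Col arrays. The question addressed was how gene expression in shoots differs between the wild type and the double mutant.

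Plant mitochondria keep a small genome of their own. It encodes the core subunits of the respiratory chain and of ATP synthase, proteins that attach heme to cytochrome c, part of the mitochondrial ribosome, a splicing maturase and many open reading frames of unknown function. Most subunits of the same complexes are encoded in the nucleus and imported. Mitochondrial transcripts are edited and spliced by nuclear factors, in some cases joining separate precursor RNAs, and poly-A tails on them generally mark them for decay.

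Of the 16 genes, 10 encode respiratory chain subunits. These are nad1, nad2, nad4, nad4L, nad5, nad6, nad7 and nad9 of complex I, which oxidises NADH, and cox1 and cox2 of complex IV, which passes electrons to oxygen. A further 4, ccmB, ccmFC, ccmFN1 and ccmFN2, belong to cytochrome c maturation. The remaining ones are matR, the maturase, and mttB, related to a protein translocase of bacteria. No ribosomal gene and no unnamed open reading frame had a probe set of exactly 1 mitochondrial gene, so those classes have 0 members. Ribosomal genes are described further on from probe sets that are annotated to more than 1 gene.

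Mitochondrial transcripts were mostly lower on the mutant array. The mutant value lay below both Col arrays for 13 of the 16 genes, against 37.4% of all 22746 probe sets. At a Benjamini-Hochberg adjusted p under 0.05 in limma, fitted to all probe sets, 5 genes fell, against 14.4% of all probe sets, and 0 rose. In either direction the limma threshold was passed by 26.3% of all probe sets. At an unadjusted p under 0.05 in limma, 8 genes were lower, against 19.1% of all probe sets, and 0 were higher. The median difference of the 16 genes was -0.75 log2, where that of all probe sets was 0.10 log2. The 5 genes that fell were nad1, nad4L, nad5, ccmB and ccmFN2. At least 1 log2 unit (2-fold) below both Col arrays were 2 genes, nad1 and nad4L, against 9.67% of all probe sets, and 0 genes lay that far above both, against 5.13%. In this fit the spread comes from the 2 Col arrays alone, and the mutant array is assumed to vary as they do.

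**Figure D1:**
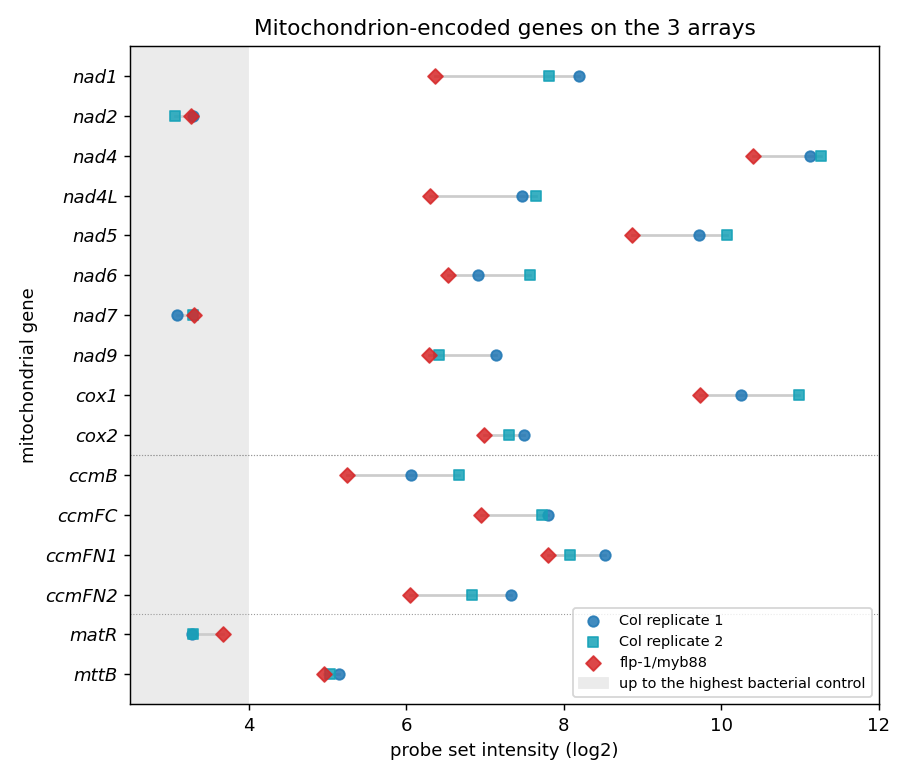
Probe set intensity (log2, x axis) of the 16 mitochondrial genes (y axis) on Col replicate 1 (circles), Col replicate 2 (squares) and the flp-1/myb88 array (diamonds). The grey area reaches up to the highest bacterial control probe set of any array, 4.0. The mutant diamond is leftmost for 13 genes, and nad2, nad7 and matR lie in the grey area.

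Among complex I genes of the membrane arm, nad1 showed the largest of the 16 differences. Its chosen probe set, 257324_at, read 8.19 and 7.81 log2 in Col and 6.36 for flp-1/myb88. It fell by 1.64 ± 0.31 log2 (SE; limma adjusted p = 0.00283), or 3.11-fold. nad4L, a small subunit of the same arm, read 7.47 and 7.64 in Col and 6.31 in the mutant. The mutant value lay further from both Col values than they lay from each other, and nad4L fell by 1.25 ± 0.30 log2 (limma adjusted p = 0.00998), or 2.38-fold. nad5, a proton-pumping subunit, read 9.71 and 10.07 in Col and 8.87 in the mutant. Its fall was 2.03-fold, a difference of -1.02 ± 0.31 log2 (limma adjusted p = 0.0292).

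The other complex I genes did not pass the threshold. nad4, also of the membrane arm, read 11.12 and 11.26 log2 in Col and 10.40 in the mutant, a difference of -0.79 ± 0.30 log2 (limma adjusted p = 0.0663). nad6 read 6.91 and 7.57 in Col and 6.54 in the mutant. Its Col arrays lay further apart than the mutant lay from the nearer of them, and the difference was -0.71 log2 (limma adjusted p = 0.137). nad9, of the arm that reaches into the matrix, read 7.14 and 6.41 in Col and 6.29 in the mutant. The mutant was thus only 0.12 log2 below Col replicate 2 for nad9, and the difference from the Col mean was -0.49 log2 (limma adjusted p = 0.318).

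The probe sets of nad2 and nad7 read close to the controls of absent bacterial transcripts. nad2 read 3.30 and 3.06 log2 in Col and 3.27 in the mutant, between the Col arrays. nad7, of the matrix arm, read 3.09 and 3.29 in Col and 3.31 in the mutant. The highest of 27 bacterial control probe sets stood at 3.60 and 3.52 in Col and at 4.0 for flp-1/myb88, and matR lay under these values as well. For nad2, nad7 and matR the probe sets therefore did not show a signal above that of the controls, and a difference in transcript level could not be read from them. The other 13 genes lay above the controls on every array, and it was these 13 that lay below both Col arrays in the mutant, with a median difference of -0.81 log2.

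Both complex IV genes lay below Col without passing the threshold. cox1, which holds the catalytic site for oxygen, read 10.25 and 10.98 log2 in Col and 9.73 in the mutant, a difference of -0.89 ± 0.35 log2 (limma adjusted p = 0.0736). Its Col arrays differed by 0.73 log2, so that the mutant was 0.52 below Col replicate 1 and 1.25 below Col replicate 2. cox2, which accepts electrons from cytochrome c, read 7.49 and 7.30 in Col and 6.99 in the mutant. The cox2 difference of -0.40 ± 0.30 log2 (limma adjusted p = 0.344) was among the smaller ones.

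All 4 cytochrome c maturation genes lay below both Col arrays, against 37.4% of all probe sets, and 2 of them fell, against 14.4%. ccmB, a membrane subunit of a transporter-like complex of this pathway, read 6.06 and 6.67 log2 in Col and 5.25 in the mutant. Its fall was 2.17-fold, a difference of -1.12 ± 0.33 log2 (limma adjusted p = 0.0263). ccmFN2 read 7.33 and 6.84 in Col with 6.04 in the mutant, a 2.05-fold fall with a difference of -1.04 ± 0.32 log2 (limma adjusted p = 0.0307). ccmFN1, ccmFN2 and ccmFC encode parts of the heme lyase, a protein that is split over these genes in Arabidopsis. ccmFC read 7.81 and 7.72 in Col and 6.95 in the mutant, a difference of -0.81 log2 (limma adjusted p = 0.0605). ccmFN1 read 8.53 and 8.08 in Col and 7.80 in the mutant, a difference of -0.51 log2 (limma adjusted p = 0.254). The median difference of the class was -0.93 log2, beside -0.75 log2 for the 10 respiratory chain genes. Without nad2 and nad7, which showed no signal above the controls, the median of the other 8 respiratory chain genes was -0.84 log2. The difference between the classes was not tested.

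Of the remaining pair, mttB read 5.14 and 5.03 log2 in Col and 4.96 in the mutant, a difference of -0.13 ± 0.30 log2 (limma adjusted p = 0.791). Among the 13 genes above the controls this was the smallest difference. matR read 3.29 and 3.30 in Col and 3.67 in the mutant, a difference of 0.38 log2 (limma adjusted p = 0.372). The 27 bacterial controls, at like values, were above both Col arrays in the mutant as well, with a median of 3.47 against 3.10 and 3.04.

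**Figure D2:**
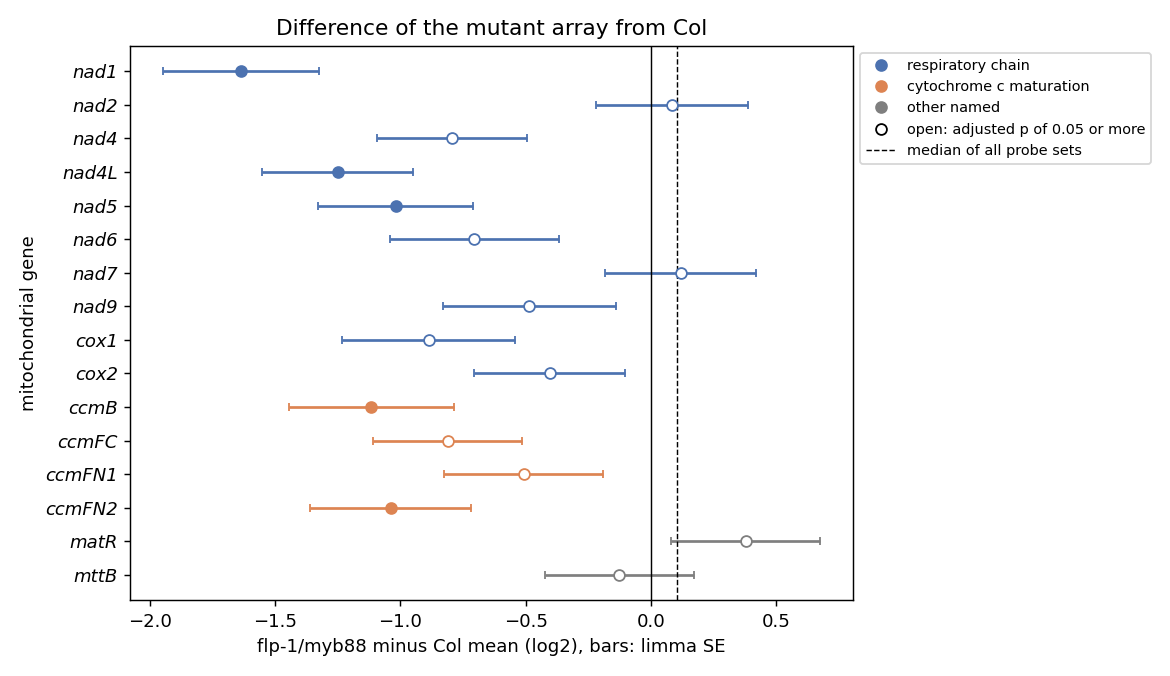
Difference of the flp-1/myb88 array from the Col mean (log2, x axis) for each of the 16 mitochondrial genes (y axis), with bars for limma's SE and colours for the class. Filled points are the 5 genes with an adjusted p under 0.05, and the dashed line is the median of all probe sets, 0.10.

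The calls depended on the scaling and on the variance model. After median centring of the arrays 3 genes fell, against 11.7% of all probe sets. There nad5 (adjusted p = 0.0507) and ccmFN2 (adjusted p = 0.0567) were past the limma threshold no longer. After quantile normalization 3 fell, against 10.4% of all probe sets, and ccmB (adjusted p = 0.0846) and ccmFN2 (adjusted p = 0.0715) lost their limma calls. With an intensity trend, and likewise after cyclic loess, 8 genes fell, the 5 genes named above and nad4, cox1 and ccmFC. The shares of all probe sets that fell were 15.1% with the trend and 15.6% after cyclic loess. nad1 and nad4L kept their calls under each of these settings. Median differences of the 16 genes stayed below 0 in all of them, 0 genes rose in any, and after each of the 3 other scalings 12 of the 16 genes lay below both Col arrays. Of all calls, 54.9% were lower in the scaling as deposited and 44.8% after median centring.

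nad1 was measured by 7 probe sets of its own, and these disagreed. In plants this gene is pieced together from separately transcribed parts by trans-splicing. 257325_at read 7.60 and 7.01 log2 in Col and 5.49 in the mutant, and fell by 1.81 ± 0.33 log2 (limma adjusted p = 0.00218), as did the chosen probe set. 257329_at read 4.78 and 5.86 in Col against 3.97 in the mutant and was called lower (limma adjusted p = 0.0242), although its Col arrays differed by 1.08. Its mutant value lay under the highest bacterial control of that array, so the size of this fall cannot be read. 257321_at differed by -1.31 log2 (limma adjusted p = 0.0528), from 7.90 and 6.40 in Col to 5.84, so that the Col arrays lay further apart than the mutant lay from their mean.

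The remaining 3 nad1 probe sets had the mutant value between the Col arrays. 257322_at read 7.61 and 6.46 log2 in Col and 6.66 in the mutant. 257323_at read 6.89 and 6.42 in Col and 6.42 in the mutant. 257327_at read 3.88 and 4.28 in Col and 4.15 in the mutant. Over the 7 probe sets the differences ran from -1.81 to 0.07 log2, so the size of the fall in nad1 holds for the probe sets named and not for the gene as a whole. nad5, likewise trans-spliced, also had a second probe set. That one, 257337_at, read 4.04 and 3.90 in Col and 4.19 in the mutant, near the controls, with a difference of 0.22 log2 (limma adjusted p = 0.633).

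**Figure D3:**
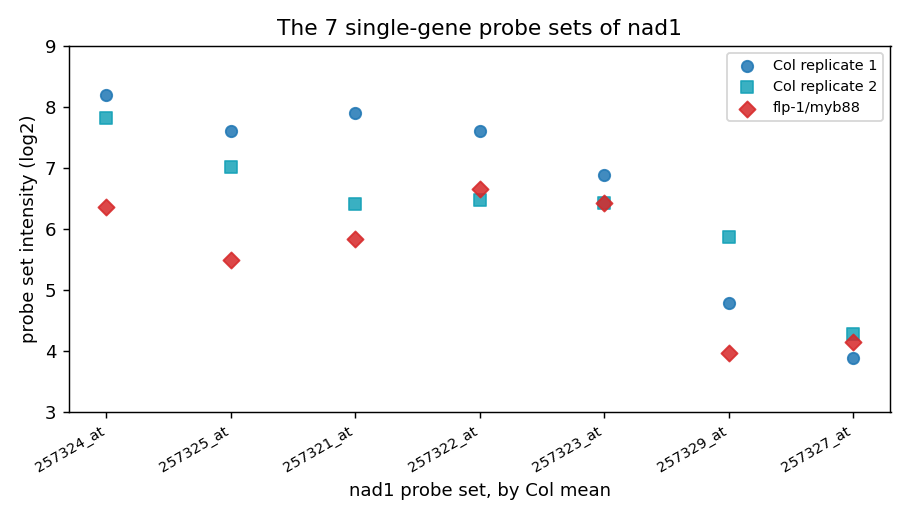
Probe set intensity (log2, y axis) of the 7 single-gene nad1 probe sets (x axis, ordered by Col mean) on the 3 arrays. The mutant diamond lies below both Col arrays for 4 of them and between the Col arrays for 3.

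A large piece of the mitochondrial genome is also present in chromosome 2 of the nucleus, and many probe sets cannot tell the copies apart. There were 11 probe sets annotated to 1 mitochondrial gene and 1 gene of chromosome 2, and 1 annotated to the mitochondrial genes rps3 and rpl16 together. On all 12 the mutant lay below both Col arrays, against 37.4% of all probe sets, and 5 were called lower, against 14.4%. The median difference was -0.74 log2, and 3 were called lower after median centring, against 11.7% of all probe sets. The rpl2 probe set is counted among the 12, but its mutant value lay under the highest bacterial control. These give the only view of the ribosomal genes. The probe set of rps12, a protein of the small ribosomal subunit, and AT2G07675 read 11.73 and 11.12 log2 in Col against 9.65 in the mutant, and fell by 1.77 ± 0.33 log2 (limma adjusted p = 0.00255). That of rps3 and rpl16 read 9.45 and 9.76 in Col against 8.32 in the mutant, and fell by 1.29 log2 (limma adjusted p = 0.00968). That of rpl5, of the large subunit, and AT2G07725 fell by 0.90 log2 (limma adjusted p = 0.0444).

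The other ribosomal probe sets did not pass. Those of rps4 and rps7, each shared with a chromosome 2 gene, differed by -0.40 and -0.19 log2. That of rpl2 read 3.67 and 3.75 log2 in Col, close to the controls, and 3.38 in the mutant, so that no size of a difference can be read from it. Among shared respiratory genes, cob, the cytochrome b of complex III, read 9.98 and 10.58 log2 in Col against 8.73 in the mutant, and fell by 1.55 ± 0.33 log2 (limma adjusted p = 0.00530). One shared nad1 probe set fell by 1.03 log2 (limma adjusted p = 0.0324) and another differed by -0.83 log2 without passing. The ATP synthase genes atp1 and atp9 differed by -0.65 and -0.45 log2, and cox3 by -0.60 log2, none past the threshold.

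Between AT2G07671 and AT2G07734, the outermost chromosome 2 genes that share a probe set with a mitochondrial gene, 20 further probe sets were annotated to 1 nuclear gene alone. The mutant lay below both Col arrays on 16 of them, against 37.4% of all probe sets, and above both on 1, against 49.2%. At the limma threshold 9 were called lower, against 14.4% of all probe sets, and 0 higher, against 11.9% (0 higher also at an unadjusted p under 0.05). For 1 of the 9, AT2G07713, the mutant value lay under the highest bacterial control. AT2G07705 fell furthest, from 9.97 and 10.30 log2 in Col to 7.78, and was named after its value was seen. Its difference was -2.35 ± 0.31 log2 (limma adjusted p = 0.000498). Which genome the RNA bound by these probe sets came from was not tested.

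Nuclear genes for respiratory chain and ATP synthase subunits lay mostly above Col. Of 60 listed genes, 32 had a probe set of their own. Only 5 of them belonged to complex I and 7 to complex IV, the complexes of the 10 mitochondrial respiratory chain genes. Above both Col arrays were 25 of these 32, against 49.2% of all probe sets, and below both were 5, against 37.4%. At the limma threshold 9 rose, against 11.9% of all probe sets, and 2 fell, against 14.4%. The median difference was 0.40 log2. MPPBETA, a processing peptidase built into complex III, read 7.36 and 7.01 log2 in Col against 8.56 in the mutant, and rose by 1.38 log2 (limma adjusted p = 0.00713). AT3G27240, also listed under complex III, rose by 1.26 log2, and AT2G02050 and AT5G11770, listed under complex I, by 1.25 and 1.10 log2. The 2 that fell were SDH1-1, the flavoprotein of complex II, at -0.997 log2, and AT2G47380, listed under complex IV, at -0.98 log2. Both were named after their values were seen, and after median centring 1 of the 32 fell, against 11.7% of all probe sets.

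For complex I the 2 gene sets lay mostly on opposite sides of Col on the mutant array. The division by complex was made after the values were seen. All 5 measured nuclear genes exceeded both Col values, against 49.2% of all probe sets. Their median difference was 0.94 log2, and 3 rose, against 11.9%. Of the 8 mitochondrial genes, 6 lay below both, against 37.4%, and 3 fell, against 14.4%. The median difference of the 8 was -0.75 log2, and -0.91 log2 without nad2 and nad7, which showed no signal above the controls. Of the 5 nuclear genes 2 rose after cyclic loess and 1 after quantile normalization. Complex I was not alone in this. Of the nuclear complex III genes 9 of 10 lay above both Col arrays and 1 below both, with a median of 0.40 log2. All 4 nuclear ATP synthase genes lay above both, with a median of 0.91 log2. Their mitochondrial counterparts, seen only on shared probe sets, were lower: cob by -1.55, atp1 by -0.65 and atp9 by -0.45 log2. For complex IV, 4 of 7 nuclear genes lay above both Col arrays and 2 below both, near the 49.2% and 37.4% of all probe sets, and their median of 0.11 log2 turned to -0.04 after cyclic loess. After cyclic loess 5 nuclear subunit genes rose and after quantile normalization 3 did, while 13 rose after median centring. Of all 22746 probe sets, 2211, 1749 and 3288 rose in these settings, in that order. Col replicate 2 lay below Col replicate 1 for 24 of the 32 nuclear genes, whereas the 16 mitochondrial genes were split 8 to 8. No test compared the nuclear with the mitochondrial genes.

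Nuclear genes for mitochondrial gene expression and alternative respiration were sparsely measured. Of 21 genes for organelle transcription, splicing and RNA processing 6 were measured, 2 rose, against 11.9% of all probe sets, and 0 fell, against 14.4% (limma, 0 lower also at an unadjusted p under 0.05). With the intensity trend 1 rose. AT5G46920 rose by 1.00 log2 (limma adjusted p = 0.0285) and AT5G04050 by 0.93 log2 (limma adjusted p = 0.0371), the latter from Col values of 3.28 and 3.39 that lay within the range of the bacterial controls. AT5G15700 differed by 0.79 log2 and OTP43, an RNA processing factor, by 0.78 log2, neither past the threshold. Of 8 nuclear genes for cytochrome c maturation and cytochrome oxidase assembly 2 were measured and 1 rose, against 11.9% of all probe sets. This was CCMH, a partner in cytochrome c maturation, which rose by 1.09 log2 (limma adjusted p = 0.0237). Of 18 genes of alternative respiration and mitochondrial stress, 6 were measured. Of the 6, 1 rose, against 11.9% of all probe sets, and 1 fell, against 14.4%. NDB1, an NAD(P)H dehydrogenase that bypasses complex I, rose by 1.29 log2 (limma adjusted p = 0.00953), and NDC1, of the same family, fell by 0.96 log2 (limma adjusted p = 0.0388). The NDC1 call was lost with the intensity trend, after median centring and after quantile normalization. NDB4 and NDB2 differed by 0.84 and 0.58 log2, neither past the threshold. To complete the list, NDB3 differed by -0.82 log2 without passing. AT2G21640 lay between the Col arrays, at 7.44 and 8.11 log2 in Col and 7.49 in the mutant. NDB4 read 3.60 and 3.54 log2 in Col, level with the highest bacterial controls at 3.60 and 3.52, so the size of its difference cannot be read.

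Plastid-encoded genes, the other organelle set, also lay low on the mutant array. The mutant was below both Col arrays for 69 of 69 such genes, against 37.4% of all probe sets, and 42 were called lower, against 14.4%. Their median difference was -0.94 log2, and 27 were called lower after median centring, against 11.7% of all probe sets. With 13 of 16 below both, the mitochondrial set shared that direction, and the difference between the organelles was not tested.

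**Figure D4:**
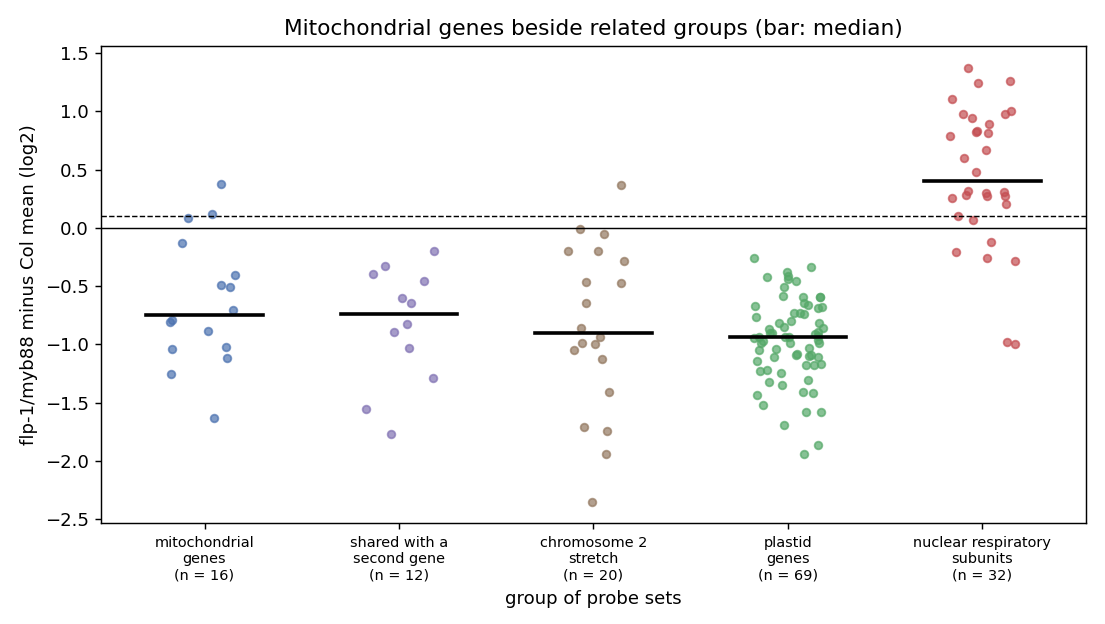
Difference of the flp-1/myb88 array from the Col mean (log2, y axis) for 16 mitochondrial genes, 12 probe sets of a mitochondrial and a second gene, 20 probe sets of the chromosome 2 stretch, 69 plastid genes and 32 nuclear respiratory subunit genes (x axis). Each point is a probe set, bars are medians and the dashed line is the median of all probe sets. The nuclear subunits have a median of 0.40 and the mitochondrial genes one of -0.75.

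Some measures of the RNA and of the array moved with the mutant. In all 6 control pairs of a 3′ and a 5′ probe set, the excess of the 3′ signal was greater in the mutant than in either Col array, with log2 medians at 2.37 and 2.31 in Col against 2.92 in the mutant. Control probe sets for rRNA, which like mitochondrial RNA lacks stable poly-A tails, were lower too. The 5S rRNA control read 11.76 and 11.60 log2 in Col against 10.62 in the mutant, and the 25S rRNA control 9.10 and 9.68 in Col and 8.88 in the mutant. For the 25S control the Col arrays lay further apart than the mutant lay from the nearer of them. The labels do not say where the primer of the amplification kit annealed. Of the array controls, all 27 bacterial probe sets lay above both Col arrays in the mutant. The 18 hybridization control probe sets did not move as a set. Their medians were 10.87 and 11.17 log2 in Col and 10.80 in the mutant, with 2 above both Col arrays and 6 below both. The part of RNA quality, amplification or array signal in the lower mitochondrial values was not tested, and with 1 mutant array it cannot be told apart from genotype. Fewer mitochondria or cells and less RNA per mitochondrion cannot be told apart either in RNA of whole shoots.

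The tissue label could be checked on few genes. Of 22 photosynthesis genes 3 were measured, RCA, LHCB4.1 and PSAN, and each read above 10 log2 on every array. Of 11 root genes 2 were measured. PYK10, abundant in roots, read 11.66 and 11.61 in Col against 11.40 in the mutant, and EXPA7, of root hairs, 4.54 and 3.78 in Col and 4.0 in the mutant. On every array PYK10 read above RCA (10.66 and 10.47 in Col, 10.95 in the mutant) and above LHCB4.1. The few measured genes therefore did not separate shoot from root. CLV3, the 1 measured gene of 4 for the shoot meristem, read 3.91 and 3.94 in Col and 3.81 in the mutant. No probe set was named for FLP or MYB88, so the mutant label was not checked on the mutated genes.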

How the data were processed

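The members and gene lists were chosen with earlier results of these data known. Intensities were deposited by the authors as RMA values, one per probe set, per the submitters' processing notes, and were read as linear from their range of 6.06 to 7618. The sources used here do not give the software for RMA. With 3 arrays, their number limits precision. RNA (25 ng) was amplified into biotin-labelled cDNA, per the labels' protocols. log2 was taken with no pseudocount and 64 control probe sets were left out. The fit used limma 3.58.1 in R 4.3.3 (lmFit and eBayes, two-sided, 1 residual degree of freedom, median SE 0.30 log2) on 22746 probe sets. It was tried on simulated data in which all 3 arrays varied alike. That trial cannot check whether the mutant array varies as the Col arrays do. P-values measure only the spread between the Col arrays, which may be technical. For each probe set limma drew this spread towards that of all probe sets. The prior had 12.13 degrees of freedom against the 1 of the probe set itself, so its own Col spread counted for little.

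The platform annotation supplied with the values has no mitochondrial locus numbers. Genes were placed on the mitochondrial chromosome through the TAIR10.1 gene table, 11 by symbol and 5 by an older synonym, none by gene ID. The 8730 probe sets with no named gene remain unnamed here, so mitochondrial reading frames among them were not analysed. No coordinates are given because the files name no build. Among the chosen probe sets, 5 are _s_at, a type that may bind RNA of more than 1 gene. The genes named were every member and, per nuclear list, up to 4 that lay farthest outside the Col arrays, with exceptions said beside them. The nuclear subunits were divided by complex after the values were seen.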

Additional observations from a re-analysis of the deposited data

How the results depend on the processing

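Alternatives were an intensity trend, a robust fit, a filter at the median level, cyclic loess, median centring, quantile normalization, each Col array left out, other probe set choices and a 2-fold limit without a test. None of these turned the median of the 16 genes, of their respiratory chain or cytochrome c maturation classes, or of all probe sets. Among the nuclear lists, cyclic loess turned the median of complex II from 0.01 to -0.06 log2, that of cytochrome c from 0.08 to -0.03 and that of complex IV from 0.11 to -0.04, and the filter turned that of alternative respiration from 0.15 to -0.29. Over all probe sets the filter gave 1976 lower calls and a median of 0.22 log2, cyclic loess a median of 0.0068, median centring one of 0.21, quantile normalization 1749 higher calls, and the 2-fold limit 1166 higher. For the 16 genes the count that fell was 8 with the trend and with cyclic loess, against 15.1% and 15.6% of all probe sets. After median centring and after quantile normalization 3 of the 16 genes fell, against 11.7% and 10.4%, and 2 did at the 2-fold limit, against 9.67%. Their median was -0.81 with the filter and after quantile normalization, -0.89 after cyclic loess, -0.64 after median centring, -0.71 over all 23 probe sets and -0.65 without _s_at probe sets. With a Col array left out, as a value with no test, it ran from -0.78 to -0.73. Over all probe sets of the respiratory chain genes 5 probe sets were called lower, against 14.4% of all probe sets on the array. Of these 5, 3 were among the 7 of nad1. Of the respiratory chain genes, 5 fell with the trend, the filter and cyclic loess, against 15.1%, 17.4% and 15.6% of the probe sets fitted. Their median was -0.84, -0.89, -0.64 and -0.49 with the filter, after cyclic loess, after median centring and without _s_at probe sets, and ran from -0.95 to -0.62 with a Col array left out. Of the cytochrome c maturation genes 1 fell after median centring, and 0 did after quantile normalization (limma, 3 at an unadjusted p under 0.05) or at the 2-fold limit. The filter leaves 11 of the 16 genes by construction. The cause of the other shifts was not tested. No paired analysis was possible because the mutant has 1 array and its label carries no replicate number.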
